A study of Mus musculus with 24 samples.

Results

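The 10 genes described here are Siglece, Gpr84, Cd300e, Tmem176a, Tmem176b, Lcn2, Upp1, Spata13, Samsn1 and Zfp811, out of 23420 gene symbols counted in every library. They were picked because their transcript level before stimulation was higher in bone marrow-derived macrophages (BMDMs) that lack the 3 TET enzymes than in wild-type (WT) BMDMs. That comparison, TET iTKO against WT at 0 h, is therefore given as a description and carries no test. The same holds for the responses to stimulation inside the Tet cohort, which share those 0 h libraries. The tests rest on the 6 h libraries of the Tet cohort and on the separate Tdg cohort, which the rule that picked the genes does not name. However, the genes were chosen with earlier results of these data known. The 6 h and 0 h libraries of the Tet cohort may also come from the same animals.

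TET1, TET2 and TET3 oxidise 5-methylcytosine in DNA, and TDG is the glycosylase that removes the most oxidised forms so that the base can be replaced. Polyadenylated RNA was sequenced from 16 BMDM libraries that formed 8 groups of 2. In the Tet cohort, TET iTKO mice carried floxed alleles of Tet1, Tet2 and Tet3, a CreERT2 and an EYFP reporter in Rosa26. In the Tdg cohort, TDG iKO mice carried floxed Tdg with the same kind of CreERT2 and a reporter for H2B-EGFP and mCherry. Each cohort had its own WT mice, whose floxed, Cre and reporter alleles are not given in the sources used here. Tamoxifen, which switches CreERT2 on, was given to control and Cre mice alike. The mice were adults on the C57BL/6 background, and the deletion was made in the whole animal before the marrow was taken. Marrow was grown into macrophages with L929-conditioned medium and M-CSF, and the cells were left unstimulated (0 h) or given Kdo2-lipid A (KLA) for 6 h. Because the counts are per gene and not per exon, they cannot show how completely the floxed exons were lost.

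KLA is the minimal active form of bacterial endotoxin and activates Toll-like receptor 4 (TLR4), the receptor through which macrophages sense Gram-negative bacteria. TLR4 signals through NF-kB and AP-1 and turns on genes for cytokines, surface receptors and metabolic enzymes within hours. A gene is often called primed when its level before the stimulus is already raised. The 10 genes fall into several roles. Siglece, Gpr84 and Cd300e encode cell-surface receptors of myeloid cells. Tmem176a and Tmem176b encode a pair of related membrane proteins of intracellular vesicles. Lcn2 encodes lipocalin-2, a secreted protein that captures bacterial iron carriers. Upp1 encodes uridine phosphorylase, which splits uridine into uracil and a ribose phosphate. Spata13 encodes a guanine nucleotide exchange factor, Samsn1 encodes an adaptor protein with SH3 and SAM domains, and Zfp811 encodes a zinc finger protein.

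Assigned counts ranged from 13145625 to 21503302 in the Tet cohort and from 4982950 to 19405606 in the Tdg cohort. The shallowest library was the second WT library of the Tdg cohort at 0 h, which also left 46.59% of its read pairs unassigned. In the Tet cohort, WT replicate 1 had 0 counts of Xist at both times against 17088 to 22210 in the other libraries of that cohort, so the WT animals differed in this respect. Macrophage markers were abundant throughout: Emr1, which encodes F4/80, had a mean of at least 36490 normalised counts and Csf1r a mean of at least 18300 in every group. Normalised counts below are raw counts divided by size factors from all 16 BMDM libraries, values in parentheses after a fold change are standard errors, and every group mean rests on 2 libraries. Since the cells were sequenced in bulk, more transcript per cell and more cells that carry the transcript cannot be told apart.

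The position of each gene is given on mm9, the build to which the authors aligned their reads. Siglece lies at chr7:50906440-50915531, Gpr84 at chr15:103138667-103140869, Cd300e at chr11:114913231-114923491, Lcn2 at chr2:32240153-32243317, Zfp811 at chr17:32934351-32937883 and Samsn1 at chr16:75859038-76022515, all on the minus strand. Upp1 lies at chr11:9018106-9036173 and Spata13 at chr14:61252838-61383393, both on the plus strand. Tmem176b (chr6:48783810-48791373, minus strand) and Tmem176a (chr6:48791482-48795363, plus strand) are neighbours that point away from each other, with 108 bases between their annotated ends. All 10 are annotated as protein-coding. A small nuclear RNA gene lies inside Zfp811 on the same strand, so counts of Zfp811 are less certain under any strand setting. The transcript Gm15555 overlaps Samsn1 on the opposite strand, so counts of Samsn1 are less certain where the strand setting is not known. For 8 of the 10 genes no 50-base exonic window recurred elsewhere in the genome, and the share that recurred was 0.16% in Spata13 and 0.91% in Samsn1.

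Start-site sequences are shown for 6 of the genes, with the stretch that Tmem176b and Tmem176a share printed once, because they differ in which motifs of TLR4-activated factors they hold. Capitals mark matches on either strand to GGG and CC with any 5 bases between them (a loose form of the NF-kB site), TGANTCA (AP-1) or TTGCNNAA (C/EBP). The stretch between Tmem176b and Tmem176a is read from mm9 on the plus strand, and the other 4 are the 250 bases before the RefSeq start site on GRCm38.p6, read on the strand of the gene.
Tmem176b to Tmem176a gap, chr6:48791374-48791481: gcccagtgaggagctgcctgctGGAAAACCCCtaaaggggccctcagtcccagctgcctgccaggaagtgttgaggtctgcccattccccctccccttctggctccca
Siglece, chr7:43660162-43660411, minus strand: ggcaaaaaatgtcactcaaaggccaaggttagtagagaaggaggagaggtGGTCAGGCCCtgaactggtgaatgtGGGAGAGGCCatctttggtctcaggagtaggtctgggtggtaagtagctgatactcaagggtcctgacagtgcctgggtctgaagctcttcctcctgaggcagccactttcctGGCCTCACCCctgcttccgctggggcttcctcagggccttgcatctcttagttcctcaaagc
Lcn2, chr2:32387740-32387989, minus strand: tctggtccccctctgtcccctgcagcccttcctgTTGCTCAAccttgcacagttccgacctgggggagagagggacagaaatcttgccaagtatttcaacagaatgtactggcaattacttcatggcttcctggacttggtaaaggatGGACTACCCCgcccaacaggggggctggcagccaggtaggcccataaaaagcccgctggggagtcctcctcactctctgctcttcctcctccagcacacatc
Upp1, chr11:9117758-9118007, plus strand: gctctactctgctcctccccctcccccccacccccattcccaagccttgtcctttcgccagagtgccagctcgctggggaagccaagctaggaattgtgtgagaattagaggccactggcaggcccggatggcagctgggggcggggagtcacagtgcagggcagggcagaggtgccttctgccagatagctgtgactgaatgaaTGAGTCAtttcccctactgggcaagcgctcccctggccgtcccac
Gpr84, chr15:103310439-103310688, minus strand: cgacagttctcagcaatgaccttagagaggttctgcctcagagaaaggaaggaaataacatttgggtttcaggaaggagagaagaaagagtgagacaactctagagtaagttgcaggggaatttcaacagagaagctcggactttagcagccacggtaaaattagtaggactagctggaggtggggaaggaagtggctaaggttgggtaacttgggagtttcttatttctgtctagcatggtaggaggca

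RefSeq lists 16 start-site windows of 300 bases for the 10 genes, running from 250 bases before to 50 bases after each start. The NF-kB letters occurred in 10 of the 16 windows, from 6 genes (Siglece, Tmem176a, Tmem176b, Lcn2, Upp1 and Spata13), and in 50.8% of all 32851 RefSeq windows. The AP-1 letters occurred in Upp1 (7.8% of all windows) and the C/EBP letters in Lcn2 (10.8%). GAGGAA, the core of sites for PU.1, the master factor of macrophages, occurred in 7 of the 16 windows, from 6 genes, and in 28.3% of all windows. Some windows of Tmem176a and Tmem176b overlap, as do some of Upp1, so the same match can count in several windows. The letters of the interferon-stimulated response element, GAAA and GAAA with any 2 bases between, occurred in none of the 10, and in 3.4% of all windows. CG pairs, the positions at which TET enzymes act, were few in most windows: Siglece had 1, Gpr84 and Lcn2 had 3 each and Zfp811 had 5, against a median of 7 over all windows. The most CG-rich window was 1 of those of Spata13, with 22, and the 108 bases between Tmem176b and Tmem176a held 0 CG pairs at a GC content of 63.9%. DNA methylation at these sites was not analysed here, and the letters alone say nothing about binding.

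**Figure D1:**
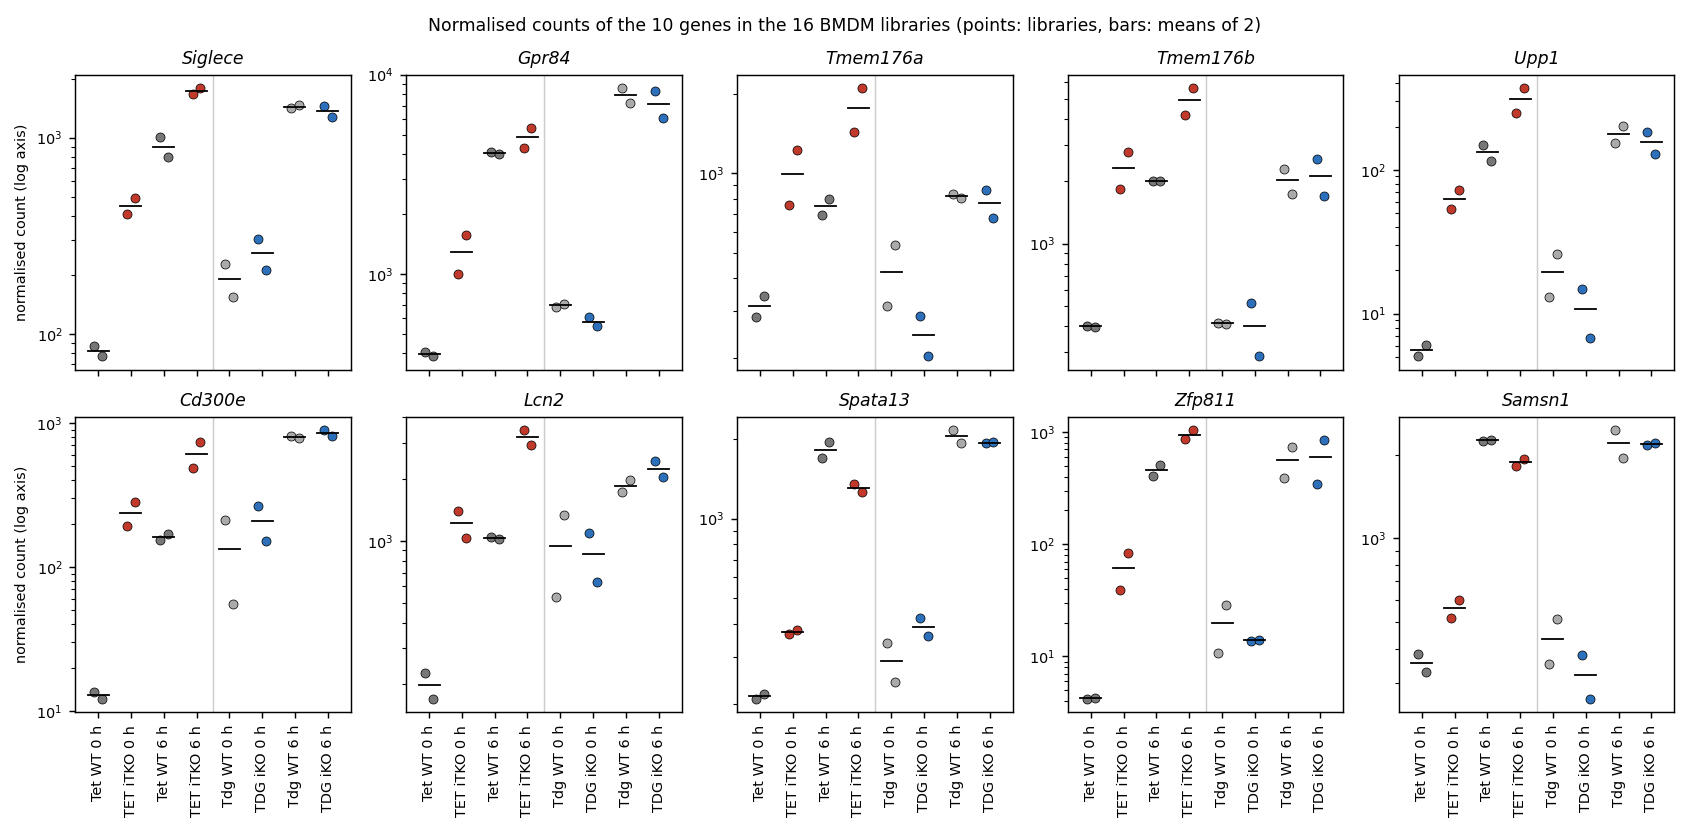
Normalised counts (log axis, a scale per panel) of the 10 genes in each of the 16 BMDM libraries, by group. Points are libraries and bars are the means of 2; the grey line separates the Tet cohort (left) from the Tdg cohort (right). In every panel the TET iTKO libraries at 0 h lie above the WT libraries of the same cohort, the comparison by which the genes were picked.

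Siglece encodes Siglec-E, an inhibitory receptor of myeloid cells that binds sialic acid. Its normalised counts in the Tet cohort were 86.6 and 76.7 in WT at 0 h, 409 and 491 in TET iTKO at 0 h, 1003 and 797 in WT at 6 h, and 1669 and 1791 in TET iTKO at 6 h. The unstimulated knockout thus stood between the unstimulated and the stimulated WT, at 50% of the stimulated WT mean. At 6 h it was still higher in TET iTKO by 0.93 on the log2 scale (0.15), with an adjusted p of 2.5e-07 by DESeq2. The Tdg cohort had 226 and 154 in WT and 303 and 210 in TDG iKO at 0 h, rising to 1417 and 1464 and to 1450 and 1276 at 6 h. The genotypes overlapped at both times there, and the TET iTKO 0 h libraries lay above all 4 unstimulated libraries of the Tdg cohort.

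Gpr84 encodes a G protein-coupled receptor for medium-chain fatty acids. It had 404 and 385 normalised counts in WT and 1000 and 1563 in TET iTKO at 0 h, and 4089 and 3999 in WT and 4307 and 5417 in TET iTKO at 6 h. The gap between the genotypes was 3.25-fold at 0 h and 1.2-fold at 6 h, where it did not pass the test (log2 fold change 0.25, SE 0.17, DESeq2 adjusted p 0.51). The 95% interval of the 6 h effect ran from -0.07 to 0.58. Among Tdg cohort libraries, WT had 681 and 708 and TDG iKO 606 and 546 at 0 h, and WT had 8578 and 7222 and TDG iKO 8250 and 6061 at 6 h. Stimulated Gpr84 was thus higher in every library of the Tdg cohort than in any of the Tet cohort.

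Cd300e encodes an activating receptor of monocytes that belongs to the CD300 family. It was barely expressed in unstimulated WT cells of the Tet cohort, at 13.5 and 12.2 normalised counts, and had 194 and 281 in TET iTKO at 0 h. This was the steepest baseline difference of the 10 genes, 4.22 on the log2 scale (0.34). The unstimulated knockout reached 146% of the stimulated WT mean, since WT rose only to 155 and 170 at 6 h while TET iTKO reached 485 and 741. At 6 h the log2 fold change was 1.90 (0.25), with a DESeq2 adjusted p of 6.99e-12, also the largest of the 10. WT of the Tdg cohort already had 210 and 55.1 at 0 h and TDG iKO 267 and 152, and all 4 stimulated libraries lay between 788 and 890. The WT baseline in the Tdg cohort was 10.4-fold that of the Tet cohort, so the low level in unstimulated WT cells was seen in the Tet cohort and not in the Tdg cohort. The pair of unstimulated WT libraries of the Tdg cohort also differed most from each other in this gene.

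Tmem176a and Tmem176b, whose proteins are related to the MS4A family and act as channels in vesicle membranes, were high in unstimulated TET iTKO cells. Tmem176b had 402 and 397 normalised counts in WT and 1833 and 2773 in TET iTKO at 0 h, against 1993 and 2010 in stimulated WT and 4171 and 5631 in stimulated TET iTKO. Tmem176a had 286 and 343 in WT and 758 and 1229 in TET iTKO at 0 h, and 696 and 800 in WT and 1437 and 2105 in TET iTKO at 6 h. Both therefore reached the stimulated WT level without KLA, at 115% of it for Tmem176b and 133% for Tmem176a. At 6 h both were higher in TET iTKO, by 1.28 (0.17) on the log2 scale for Tmem176b, with a DESeq2 adjusted p of 3.06e-11, and by 1.23 (0.21) for Tmem176a, with 5.29e-07.

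In the Tdg cohort the pair stayed low before KLA. Tmem176b had 416 and 409 in WT and 516 and 286 in TDG iKO at 0 h, and 2292 and 1740 in WT and 2553 and 1702 in TDG iKO at 6 h. Tmem176a had 314 and 534 in WT and 287 and 202 in TDG iKO at 0 h, then 834 and 807 in WT and 861 and 679 in TDG iKO at 6 h. The WT baselines of Tmem176b in the 2 cohorts were nearly equal, with a ratio of 1.03, and so were the stimulated WT levels, with a ratio of 1.01. Tmem176a had the lowest unadjusted p of the 10 for the TDG effect at 0 h, 0.0369 for a log2 fold change of -0.78 (0.37) by DESeq2, and an adjusted p of 1.

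Lcn2 is best known as a product of neutrophil granules, and TLR4 also induces it in macrophages. Its normalised counts were 227 and 170 in WT and 1405 and 1036 in TET iTKO at 0 h, and 1047 and 1026 in WT and 3453 and 2933 in TET iTKO at 6 h. The unstimulated knockout overlapped the stimulated WT. The 6 h difference had the smallest p of the 10, with a log2 fold change of 1.61 (0.16) and a DESeq2 adjusted p of 3.2e-20. Values in the Tdg cohort were 536 and 1343 in WT and 1088 and 631 in TDG iKO at 0 h, and 1726 and 1976 in WT and 2457 and 2041 in TDG iKO at 6 h. Unstimulated Lcn2 was therefore scattered in this cohort, and 2 of its 4 unstimulated libraries lay at or above the lower TET iTKO library.

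Upp1 had the lowest level per kilobase of the 10 in 6 of the 8 groups. It had 5.05 and 6.09 normalised counts in WT at 0 h, from 6 and 10 raw counts, and 53.2 and 72.3 in TET iTKO. KLA brought it to 149 and 115 in WT and to 247 and 371 in TET iTKO. The genotypes did not overlap at 6 h, and the log2 fold change was 1.22 (0.29), with a DESeq2 adjusted p of 0.00136. Tdg cohort libraries had 13 and 26.1 in WT and 14.9 and 6.74 in TDG iKO at 0 h, and 154 and 203 in WT and 184 and 130 in TDG iKO at 6 h. All 4 unstimulated libraries there lay below the TET iTKO range.

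Zfp811 had the widest span of the 10. From 4.2 and 4.26 normalised counts in unstimulated WT, which were 5 and 7 raw counts, it rose to 407 and 508 at 6 h. TET iTKO had 38.7 and 83.8 at 0 h and 861 and 1034 at 6 h. Although the baseline differed by 14.5-fold between the genotypes, the unstimulated knockout reached only 13.4% of the stimulated WT mean, the lowest share of the 10. At 6 h the log2 fold change was 1.04 (0.23), with a DESeq2 adjusted p of 0.000359. Tdg cohort values were 10.6 and 29 in WT and 13.7 and 14.2 in TDG iKO at 0 h, and 387 and 737 in WT and 340 and 855 in TDG iKO at 6 h. At 6 h the replicates within each genotype spread more widely than the genotypes differed, and at 0 h both TDG iKO libraries lay between the WT libraries.

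The signalling genes Spata13 and Samsn1 differed least at baseline and changed sides after stimulation. Spata13 had 209 and 217 normalised counts in WT and 365 and 379 in TET iTKO at 0 h, but 1691 and 1944 in WT and 1349 and 1265 in TET iTKO at 6 h. It was the only gene of the 10 called lower in TET iTKO at 6 h, by a log2 fold change of -0.49 (0.13) with a DESeq2 adjusted p of 0.00501. Samsn1 had 382 and 331 in WT and 518 and 599 in TET iTKO at 0 h, and 2248 and 2261 in WT and 1823 and 1938 in TET iTKO at 6 h. Its 6 h libraries did not overlap between genotypes, yet the log2 fold change of -0.27 (0.13) did not pass the test (DESeq2 adjusted p 0.228).

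In the Tdg cohort, Spata13 had 339 and 241 in WT and 422 and 358 in TDG iKO at 0 h, and 2156 and 1935 in WT and 1934 and 1939 in TDG iKO at 6 h. Thus 1 unstimulated TDG iKO library exceeded both TET iTKO libraries. Samsn1 had 353 and 510 in WT and 379 and 264 in TDG iKO at 0 h, and 2450 and 1947 in WT and 2171 and 2214 in TDG iKO at 6 h. For this gene the WT baselines of the cohorts overlapped, with a ratio of the Tdg to the Tet cohort of 1.21.

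Across the 10 genes, the 0 h difference by which they were picked ranged from 0.65 on the log2 scale for Samsn1 to 4.22 for Cd300e, with a median of 2.5. The groups did not overlap for any of them, as the choice makes likely, and 27.6% of all genes tested had both TET iTKO libraries above both WT libraries at 0 h. At 6 h, 8 of the 10 were called by DESeq2 at an adjusted p under 0.05, 7 higher in TET iTKO and 1 lower, whereas 6.45% of 11823 genes tested were called, 3.16% of them higher and 3.28% lower as shares of all tested. The median 6 h log2 fold change was 1.13 over the 10 genes and 0 over all genes to 2 decimals. All 10 passed the filter on low counts here, and edgeR called 8 of the 10 as well, against 4.68% of all genes. The libraries of the genotypes did not overlap at 6 h for any of the 10, against 47.3% of genes not overlapping in either direction. The 0 h and 6 h libraries of a replicate share an identifier that may be an animal number, in which case the 6 h result comes from the same animals as the 0 h difference. The p-values rest on the spread between the 2 libraries of a group, estimated jointly over the 4 groups of the cohort and moderated over all genes. They take no account of a link between the 0 h and 6 h libraries.

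The 6 h calls of 4 genes, Siglece, Tmem176b, Cd300e and Lcn2, held under every alternative fit, with adjusted p-values of at most 0.0149. The others leaned on single libraries. Without the second WT library at 6 h, Tmem176a, Upp1 and Spata13 missed the threshold and 5 of 10 were called, against 5.05% of all genes, and without the second TET iTKO library at 6 h, Upp1, Spata13 and Zfp811 missed it and again 5 of 10 were called, against 2.43%. Without the first WT library at 6 h, which lacked Xist counts, 6 of 10 were called, against 3.72%, with Tmem176a and Zfp811 missing the threshold.

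**Figure D2:**
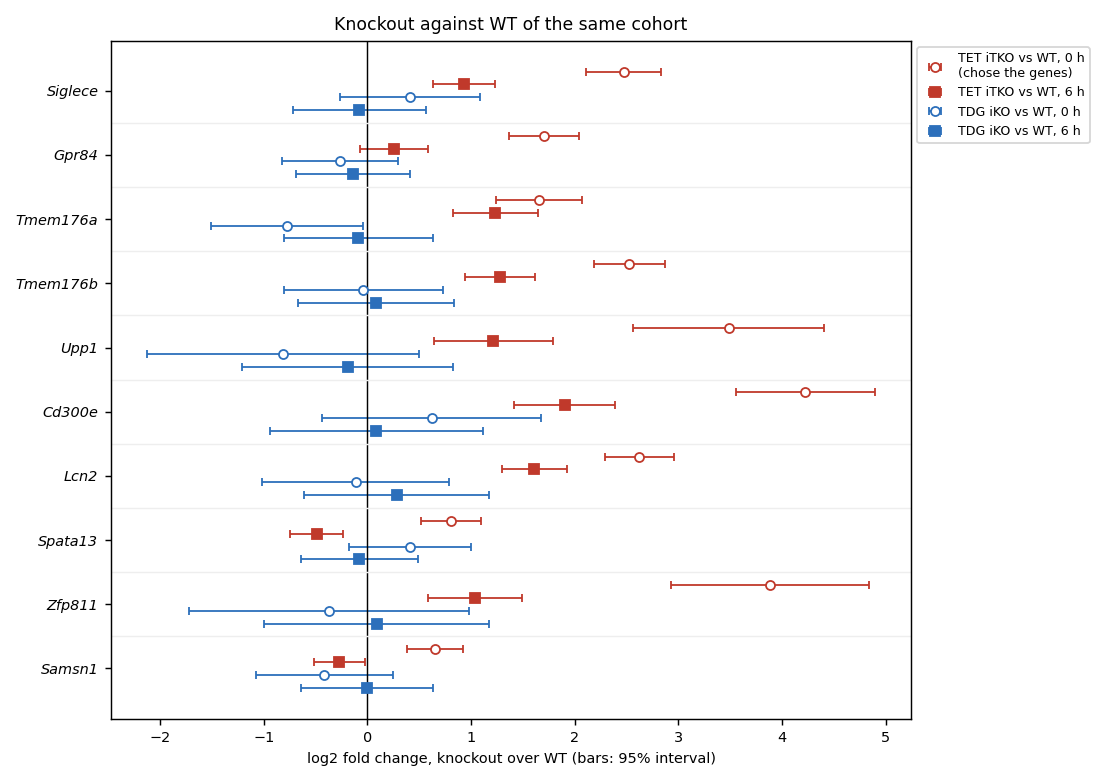
log2 fold change of knockout over WT of the same cohort for the 10 genes, with 95% intervals from the DESeq2 fit of each cohort. Open red circles (TET iTKO, 0 h) are the values that picked the genes and lie at 0.65 or above; at 6 h (red squares) 8 of 10 lie above 0, and the TDG iKO values (blue) have intervals that include 0 except Tmem176a at 0 h.

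In the Tet cohort, the called neutrophil markers, and most called markers of monocytes and progenitors, moved in the same direction as most of the 10 genes. The neutrophil marker Csf3r had means of 1100 in WT and 1261 in TET iTKO at 0 h. At 6 h its mean was lower in TET iTKO, at 2707 against 3241 in WT. The summed normalised counts of 15 neutrophil markers were 3859 and 3882 in WT and 7069 and 9465 in TET iTKO at 0 h, and 5878 and 6966 in WT and 10106 and 11845 in TET iTKO at 6 h. Mmp9, a protease of neutrophils that macrophages also express, made up a large part of this, at a mean of 586 in WT and 2845 in TET iTKO at 0 h, while the neutrophil transcript Retnlg stayed at 1.68 or below in the Tet cohort. At 6 h, 6 of 12 tested neutrophil markers were called higher in TET iTKO and 0 lower, including the granule genes Ngp (log2 fold change 2.77, SE 0.575) and Ltf (2.60, SE 0.72). Of 10 tested monocyte and progenitor markers, 6 were called higher and 1 lower, including the stem and progenitor marker Cd34 (3.84, SE 1.1) and the chemokine receptors Cx3cr1 (3.6, SE 0.54) and Ccr2 (2.47, SE 0.64). Ly6c2, the monocyte gene with the highest counts of the list, had lower means in TET iTKO, at 1390 against 1895 at 0 h and 1640 against 2091 at 6 h. The summed level of that list was 2174 and 2402 in WT and 2820 and 4944 in TET iTKO at 0 h, and 2276 and 2552 in WT and 2734 and 3991 in TET iTKO at 6 h. The neutrophil markers had a median log2 fold change of 1.193 (0 h) and 1.269 (6 h) in TET iTKO. In TDG iKO it was 1.425 and 1.087, with 0 of 15 called, while the 10 genes had medians of -0.19 and -0.04. Neutrophil sums in the Tdg cohort at 0 h were 2404 and 3726 in WT and 2557 and 8934 in TDG iKO, high in 1 library.

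Macrophage markers were divided. Of 10 tested, 0 were called higher and 6 lower in TET iTKO at 6 h, including the efferocytosis receptor Mertk (log2 fold change -1.1, SE 0.19). Emr1, Csf1r, Itgam and Cd14 had higher means in TET iTKO than in WT at both times, with Emr1 at 41380 against 36490 at 0 h and 56100 against 52170 at 6 h. The summed level of the list was lower, mainly through the lysozyme gene Lyz2, with means of 241000 in WT and 182000 in TET iTKO at 0 h. That sum was 361640 and 371610 in WT and 302810 and 309380 in TET iTKO at 0 h, and 390360 and 398480 in WT and 323190 and 326490 in TET iTKO at 6 h. The sum of the dendritic cell list was 23933 and 33216 in WT and 10883 and 11880 in TET iTKO at 0 h, carried by the antigen presentation genes Cd74, H2-Ab1 and H2-Eb1, and at 6 h 1 of 7 tested was called higher and 2 lower. The dendritic cell marker Cd209a was at 0 in all 4 groups of the Tet cohort. Of 5 lymphocyte markers tested at 6 h, 1 was called higher, the B cell gene Ms4a1, whose means were 3.86 (WT) and 54.4 (TET iTKO). The T cell gene Cd3e stayed at 1.43 or below. The part of these cell types in the difference of the 10 genes was not tested.

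**Figure D3:**
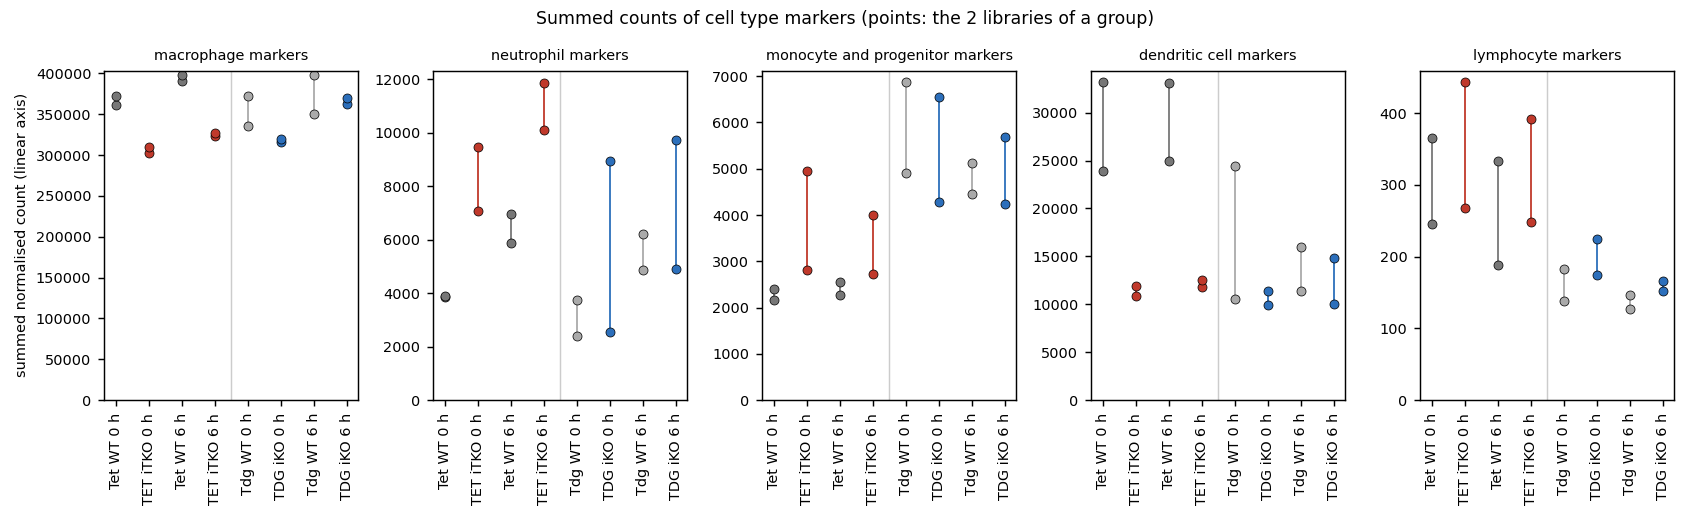
Summed normalised counts (linear axes from 0) of 5 lists of cell type markers in the 8 BMDM groups, with a point for each of the 2 libraries. In the Tet cohort the neutrophil sums lie higher and the macrophage and dendritic cell sums lower in TET iTKO than in WT at both times; in the Tdg cohort 1 TDG iKO library at each time lies above the others in the neutrophil sum.

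KLA raised nearly all of the 10 genes in the Tdg cohort, where the response could be tested. There 8 of 10 were called higher at 6 h than at 0 h in WT, against 5.35% of 11530 genes tested, and 10 of 10 in TDG iKO, against 4.2% of 11821. The WT log2 responses ran from 0.97 for Tmem176a to 4.96 for Zfp811, with a median of 2.68 against -0.03 over all genes. The largest responses after Zfp811 (SE 0.64) were those of Gpr84, 3.52 (0.28) with a DESeq2 adjusted p of 1.05e-31, and Upp1, 3.3 (0.6) with 2.81e-06. Tmem176a (0.97, SE 0.37, adjusted p 0.0836) and Lcn2 (0.996, SE 0.46, adjusted p 0.187) were the 2 not called in WT, and their adjusted p in TDG iKO was 0.000252 and 0.0355 by DESeq2. The groups did not overlap between times in either genotype for any of the 10, whereas 25.7% of genes in WT and 22.9% in TDG iKO had both 6 h libraries above both 0 h libraries.

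Over 14 alternative fits, including those without a single library, the WT log2 response ran from 0.631 to 1.383 for Tmem176a and from 0.474 to 1.79 for Lcn2. In TDG iKO it ran from 1.046 to 1.841 for Lcn2 and from 1.669 to 2.487 for Cd300e. The TDG iKO call of Lcn2 was lost in 6 of the 14 fits, that of Cd300e in 3 and that of Tmem176a in 1. By edgeR 7 of 10 were called in WT, against 2.55% of all genes, and 8 of 10 in TDG iKO, against 2.01%: Cd300e also missed the threshold in WT (adjusted p 0.0551), and Cd300e and Lcn2 missed it in TDG iKO (0.114 and 0.172).

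KLA responses inside the Tet cohort are given without a test. In WT the mean rose by 2.38-fold for Tmem176a to 108-fold for Zfp811, with a median of 9.43-fold over the 10 genes, and in TET iTKO by 1.78-fold for Tmem176a to 15.5-fold for Zfp811, with a median of 3.44-fold. The response was smaller in TET iTKO for each of the 10 genes, by 0.43 on the log2 scale for Tmem176a to 2.84 for Zfp811. A raised 0 h value lowers this ratio by construction, so the smaller response is not a separate finding. After KLA the TET iTKO mean ended above WT for 8 genes and below it for Spata13 and Samsn1. The level before KLA was 29.1% of the level after it in TET iTKO and 10.7% in WT at the median of the 10 genes.

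**Figure D4:**
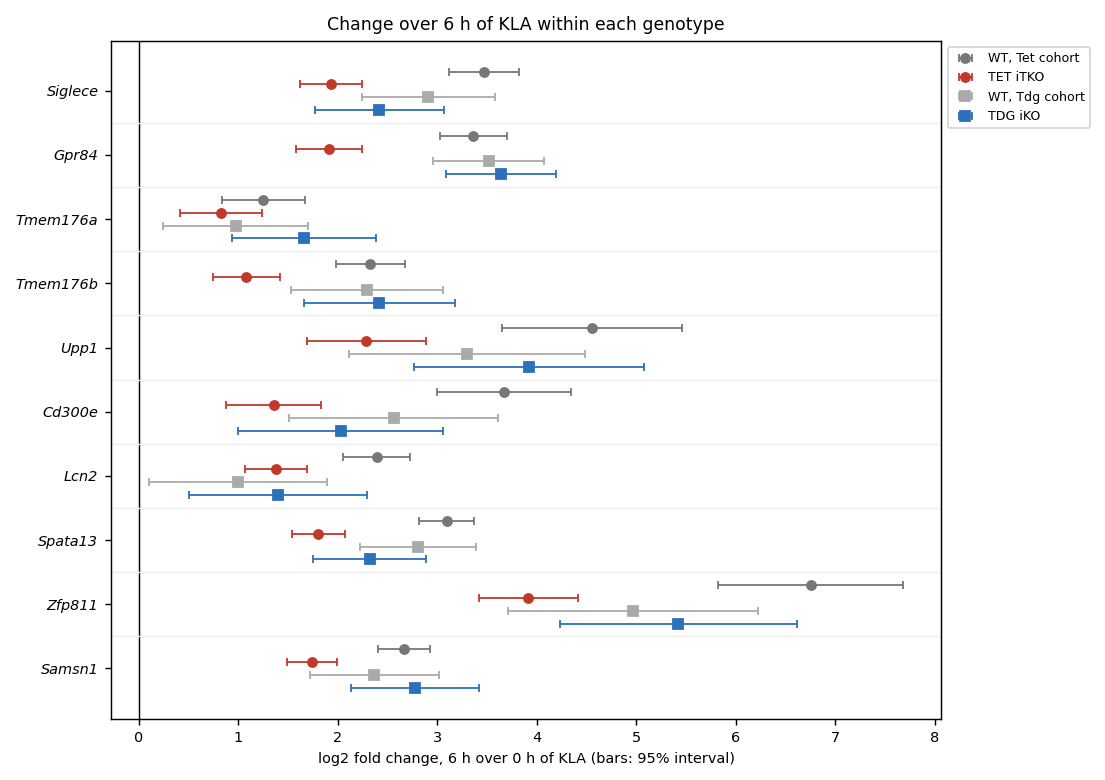
log2 fold change from 0 h to 6 h of KLA for the 10 genes in each genotype and cohort, with 95% intervals from the fit of each cohort. Every value lies above 0; the TET iTKO values (red) lie below those of their own WT (dark grey) for all 10 genes, and the TDG iKO (blue) and WT (light grey) intervals of the Tdg cohort overlap for each gene.

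No raised baseline of the 10 genes was detected in TDG iKO cells. At 0 h DESeq2 called 0 of the 10 genes in TDG iKO, against 0% of 15026 genes tested, with 1 of 10 and 265 genes in all below 0.05 before adjustment. For edgeR the numbers were 0 genes after and 125 before adjustment. The log2 fold changes ran from -0.81 for Upp1 to 0.62 for Cd300e, with 3 above and 7 below 0 and a median of -0.19. The groups did not overlap for 3 genes, against 20.5% of all genes in either direction. Of these, Gpr84 and Tmem176a were lower in TDG iKO and Spata13 was higher, by 0.41 on the log2 scale. The intervals show what this design could not exclude: that of Cd300e reached 1.68 and that of Siglece 1.09, while that of Tmem176b ended at 0.73. That of Spata13 ran from -0.18 to 1.00, a range that includes its TET iTKO difference at 0 h of 0.80. Without the first WT library at 0 h, 2 of 10 were called, Cd300e higher and Tmem176a lower, in a fit that left the shallow library as the lone unstimulated WT and called 11.5% of all genes.

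At 6 h the log2 fold changes in TDG iKO lay between -0.19 for Upp1 and 0.28 for Lcn2, 0 of 10 were called against 0% of 15026 genes, and 0 of 10 lay below 0.05 before adjustment against 34 genes in all by DESeq2. For edgeR the numbers over all genes were 0 after and 27 before adjustment. The genotypes did not overlap for 1 gene, Lcn2, against 16% of all genes. The change of the KLA response by TDG loss was called for 0 of 10 genes, against 0% of all genes, with 0 of the 10 and 37 genes in all below 0.05 before adjustment by DESeq2, and with 0 after and 24 before adjustment by edgeR. Its estimates ran from -0.53 for Cd300e to 0.69 for Tmem176a. The widest intervals were those of Zfp811, from -1.27 to 2.19, and Upp1, from -1.04 to 2.28, so a sizeable change in these low-count genes was not excluded.

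Whether the TET effect at 6 h differs from the TDG effect at 6 h was tested directly in a fit of all 16 libraries. DESeq2 called 0 of 10 genes, against 0.0888% of 12393 genes (11 in all), and edgeR called 0 of 10 and 1 gene in all (0.00851%). Before adjustment 6 of 10 genes lay below 0.05 by DESeq2, against 423 genes in all, and edgeR had 369 in all. The difference, TET effect minus TDG effect, was above 0 for 8 genes, and was largest for Cd300e at 1.83 (0.63), followed by Upp1 at 1.43 (0.54). It was smallest in size for Samsn1 at -0.26 (0.31). The lowest adjusted p among the 10 was 0.377, for Siglece, at a difference of 1.02 (0.32).

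The cohorts themselves differed at baseline. Unstimulated WT cells of the Tdg cohort had 1.03-fold (Tmem176b) to 10.4-fold (Cd300e) the mean of unstimulated WT cells of the Tet cohort, with a median of 2.04-fold, and 0.179 to 0.78 of the mean of unstimulated TET iTKO cells. All 4 unstimulated libraries of the Tdg cohort lay above both WT libraries of the Tet cohort for 7 genes, and at least 1 of the 4 reached the lower TET iTKO library for Cd300e, Lcn2 and Spata13. Stimulated WT levels were closer, with a median ratio of 1.29 and a range of 0.975 for Samsn1 to 4.92 for Cd300e. Cohort, breeding, culture and sequencing run cannot be told apart here. The monocyte and progenitor markers were also higher in the WT of the Tdg cohort at 0 h, with sums of 4919 and 6885 against 2174 and 2402, and their part in this was not tested.

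Per kilobase of exon, the order of the genes also shifted. In unstimulated WT cells of the Tet cohort, Tmem176a (281 normalised counts per kilobase), Gpr84 (255) and Tmem176b (188) led, and Zfp811 (2.56) and Upp1 (2.84) were last. In unstimulated TET iTKO cells Tmem176b led with 1082, followed by Tmem176a with 888 and Gpr84 with 827, and Upp1 was last with 32. After KLA Gpr84 led in both genotypes, with 2609 in WT and 3137 in TET iTKO, and Upp1 was last in WT with 67.4 while Spata13 was last in TET iTKO with 144. Gpr84 at 6 h stood above 98.3% of all genes with a level in WT.

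The order of the 8 groups from low to high separated the genes into patterns. For Siglece, Gpr84, Upp1, Spata13, Zfp811 and Samsn1 every library of the 4 unstimulated groups lay below every stimulated library. Unstimulated TET iTKO was the highest of the 4 unstimulated groups for 9 genes by mean, the exception being Spata13, where TDG iKO overlapped it. For Tmem176a, Tmem176b, Cd300e and Lcn2 the unstimulated TET iTKO libraries overlapped the stimulated WT of at least 1 cohort or exceeded it. In the Tdg cohort, the WT and TDG iKO libraries at 6 h overlapped for 9 genes, and those of Lcn2 did not.

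The 10 genes varied together over the libraries, which is a description, since the same groups set every pair. Centred within cohort on the log2 scale, each gene correlated with the mean of the 10 at a Pearson r of 0.904 (Lcn2) to 0.992 (Upp1) over 16 libraries, and pairs ranged from 0.707 for Tmem176a and Spata13 to 0.977 for Gpr84 and Samsn1. The 5 other genes whose pattern was most like the mean of the 10, among 9465 genes with a mean of at least 50 normalised counts, were Il1b, Cd14 and Rac2 (each 0.986), Gm15987 (0.978) and Ptgir (0.977). Il1b, the cytokine interleukin-1 beta, had means of 20.3 in WT and 283 in TET iTKO at 0 h, and 1856 and 5769 at 6 h. Cd14, the co-receptor that hands lipid A to TLR4, had 1092 and 3402 at 0 h and 8435 and 15772 at 6 h. Rac2, a GTPase of leukocytes, had 3057 and 4917 at 0 h and 5739 and 7305 at 6 h.

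Other TLR4 target genes, which the rule did not pick by their 0 h level, moved in both directions. Of 39 textbook targets tested, 9 were called higher and 4 lower in TET iTKO at 6 h, against 3.16% and 3.28% of all genes, with a median log2 fold change of 0.11. At 0 h, 15 were called higher and 1 lower, against 535 and 381 of 12114 genes, with a median of 0.645. A raised 0 h level was thus not particular to the 10 genes. The KLA response of WT in the Tdg cohort was called higher for 29 targets, against 5.35% of all genes, and lower for 1, with a median of 3.04. Among the targets higher at 6 h in TET iTKO were Il6 (3.21, SE 0.99), Cxcl3 (1.84, SE 0.21), Il12b (1.83, SE 0.53) and Il1b (1.63, SE 0.5). For TDG loss 0 of the 39 were called at either time. Relatives of the 10 genes, from the same families or the same biochemical step, were mostly not called: of 25 tested at 6 h, 1 was higher in TET iTKO, the sialic acid receptor Cd33 (0.69, SE 0.18), and 2 were lower, the CD300 receptor Cd300lf (-0.91, SE 0.17) and Cd22 (-0.8, SE 0.22). The median of the relatives was 0.06. Over all genes 3.16% were called higher and 3.28% lower, so the relatives lay near these shares. The list pools several families with genes of related steps, and no count was made per family.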

How the data were processed

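Per the study's methods, libraries were polyadenylated, directional and read as 50-base pairs on either of a pair of Illumina instruments, and which one read which library is not given in the sources used here. The authors aligned reads to mm9 with HISAT2 and deposited raw HTSeq counts for 23420 symbols, with 5 tallies of unassigned pairs that were left out here. Annotation and strand setting are not given. The 10 genes and all gene lists were chosen with earlier results of these data known, and the rule named the members, the 5 genes of most similar pattern and up to 4 called genes per list. Other marker genes, given by their levels, were chosen after their values were seen.

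Each cohort of 8 libraries was fitted with DESeq2 1.42.0 in R 4.3.3 (Wald test, median-of-ratios size factors, Benjamini-Hochberg adjustment over all genes tested, threshold 0.05), as the study's methods state DESeq2 (version 1.30.0 in the submitters' processing notes). Fold changes come from these fits, or from group means where given as multiples. The TET and TDG effects at 6 h were compared in a fit of all 16 libraries. edgeR 4.0.16 was the alternative. Similar patterns used log2(normalised count + 1). Exon lengths came from GENCODE vM1 (mm9), start sites from RefSeq (GRCm38.p6). When tested on simulated data in which 200 genes differed by a log2 value of 2, DESeq2 recovered 100% for the TET effect at 6 h (15028 genes), 84.5% for the KLA response of WT in the Tdg cohort (15026 genes) and 80% for the TET minus TDG difference (15753 genes). The false share among its calls was 8.68%, 19.5% and 13.0% in the same order, against 3.85%, 2.11% and 7.33% for edgeR. The changed genes had a mean of at least 50 counts, and the simulated spread was the one estimated by edgeR, which may favour that tool. The simulated size exceeds the largest 6 h TET effect of the 10 genes, 1.90, so the recovery does not show how often smaller changes would be found. In the Tet cohort, replicates of the same number shared an identifier between times, and their deviations correlated at 0.517 in WT and 0.461 in TET iTKO over 9475 genes. In the Tdg cohort the deviations of same-numbered libraries correlated between times at 0.357 in WT and 0.815 in TDG iKO. The main fits did not include the replicate number. At the depths here 3 counts equalled a share of 1.4e-05% to 6.02e-05%, which covers counting error only.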

Additional observations from a re-analysis of the deposited data

How the results depend on the processing

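The number of the 10 genes called kept within 1.5 times under every alternative for the TET effect at 6 h, the KLA responses in the Tdg cohort and the TDG effects, except when single libraries were left out. With 1 library left out, it ran from 5 to 8 for the TET effect at 6 h, from 0 to 2 for the TDG effect at 0 h and from 0 to 1 for the TET minus TDG difference at 6 h, where Cd300e was called without either WT library of the Tdg cohort at 0 h. A group left with 1 library was assumed to vary like the others. The descriptive medians of the Tet cohort moved by less than the spread between replicates.

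Replicate numbers of the 2 genotypes were not tied to each other by the labels. The deviations of same-numbered WT and knockout libraries correlated at 0.013 and 0.035 in the Tet cohort (0 h, 6 h) and at 0.316 and 0.81 in the Tdg cohort. With the replicate block, 3 of 10 genes (Siglece, Tmem176b and Cd300e) were called for the TET minus TDG difference (DESeq2 adjusted p 0.0487, 0.0138 and 0.0319), against 0 without it, Tmem176a was called for the KLA response of WT in the Tdg cohort (0.0299), joined by Lcn2 with the replicate block nested in genotype (0.0094 and 0.00291), and the TDG effect on Samsn1 at 6 h changed sign, to 0.002. Over all genes the block changed the calls from 11 to 101 of 12393 genes tested for that difference, from 1006 to 1805 for the KLA response of WT in the Tdg cohort, from 821 to 1373 for that of TDG iKO and from 0 to 4 for the TDG effect at 0 h. edgeR called 413 and 346 genes for these KLA responses and 1 for the difference. For the TET effect at 6 h the call count over all genes was 762, with 262 to 699 when 1 library was left out. For the TDG effect at 0 h it reached 1184 with 1 library left out, and for the TDG change of the KLA response 241.

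Uncalled log2 values in the Tdg cohort changed sign when single libraries were left out. At 0 h the TDG effect ran from -0.534 to 0.336 for Tmem176b, from -0.013 to 1.927 for Cd300e, from -0.637 to 0.682 for Lcn2 and from -1.049 to 0.396 for Zfp811. At 6 h it ran from -0.18 to 0.02 for Siglece, from -0.387 to 0.074 for Gpr84, from -0.277 to 0.081 for Tmem176a, from -0.249 to 0.352 for Tmem176b, from -0.468 to 0.05 for Upp1, from -0.154 to 0.003 for Spata13, from -0.714 to 0.627 for Zfp811 and from -0.159 to 0.173 for Samsn1. The TDG change of the KLA response ran from -0.116 to 0.337 for Gpr84, from -0.253 to 0.613 for Tmem176b, from -1.845 to 0.099 for Cd300e, from -0.399 to 0.917 for Lcn2 and from -0.359 to 1.135 for Zfp811. These are the results in which a sign changed, and the cause was not tested. Groups of 2, the shallow WT library of the Tdg cohort and the low raw counts of Upp1 and Zfp811 in unstimulated WT (5 to 10 in the Tet cohort) limit the precision.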

Other observations

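In Th2 cells, helper T cells grown in culture and sequenced as 8 libraries in the same series (4 of WT and 4 of TDG iKO, given as 1 range), the receptor genes and Lcn2 were nearly silent. Siglece, Gpr84, Cd300e and Lcn2 had 0 or 1 raw counts in each Th2 library. Samsn1 was present at 159 to 183 CPM and Spata13 at 86.8 to 133, while Tmem176a lay between 3.37 and 13.1, Tmem176b between 5.88 and 18.6, Upp1 between 0.15 and 11.9, and Zfp811 between 0 and 0.864. The adaptor Samsn1 and the exchange factor Spata13, the genes with the smallest baseline difference in TET iTKO macrophages, were thus the ones of the 10 with the highest counts in T cells. The comparison is between separately grown cell types and was not tested.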
